A study of Mus musculus with 24 samples.

Results

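The endoplasmic reticulum (ER) chaperones described here are 10 genes, Hspa5, Hsp90b1, Sdf2l1, Creld2, Pdia4, Pdia6, Calr, Dnajb11, Manf and Hyou1. They were chosen by symbol as chaperones of the unfolded protein response, and all 10 were found among the 23240 genes measured by poly(A)-based RNA sequencing of mouse hippocampus. The mice were male wild-type C57BL/6, 4 to 8 months old. A nonstressed group (n = 4) ate the control diet, received neither stress nor treatment, and was the only group without chronic unpredictable stress (CUS), which lasted 5 weeks. The stressed mice received sham treatment or electroconvulsive therapy (ECT, single shocks under light isoflurane, 3 sessions per week for 2.5 weeks) on the control diet (sham n = 5, ECT n = 6) or on the PLX diet (sham n = 5, ECT n = 4). The PLX diet held PLX5562, as the labels spell it, an inhibitor of the CSF1 receptor kinase that microglia need to survive, and began 3 weeks before stress. The control diet lacked the compound, and no nonstressed group on the PLX diet was analysed here.

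Values are normalised read counts, each gene's reads scaled by its library's size factor, and libraries held between 14971582 and 20120206 reads assigned to genes. Libraries are called by the number in their titles. Whether the libraries stem from different mice is not stated in the labels, and p-values therefore measure only the spread between these libraries, which may be technical. Titles also carry a letter of unstated meaning, 14 letters in all, each within 1 group. P2ry12, a microglial receptor gene, lay between 503.9 and 748.9 in the control diet libraries and between 63.89 and 125.3 in the PLX diet libraries, and all 14 microglial marker genes were lower on the PLX diet in sham and in ECT mice (adjusted p under 0.05, limma). Markers of dentate granule cells and of pyramidal cells were detected in every group.

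Proteins that enter the secretory pathway fold in the lumen of the ER. When unfolded proteins build up there, the chaperone BiP is drawn away from the sensors IRE1, PERK and ATF6, and the unfolded protein response begins. ATF6 and the spliced form of XBP1 then raise transcription of chaperone genes, while PERK acts through ATF4 on amino acid metabolism and Ddit3. Neurons make large amounts of membrane and secreted protein, and BiP is also an abundant protein of resting brain cells.

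Many chaperone promoters carry the ER stress response element, ERSE, which is the block CCAAT, bound by NF-Y, then any 9 bases and the block CCACG, bound by ATF6 or XBP1. RefSeq promoter sequences (GRCm38.p6, 250 bases before to 50 after the annotated start) matched 8 of the 10 genes by symbol, not Manf and Hyou1. A search of both strands found the complete ERSE in 5 of these 8 promoters, against 39 of all 32851 promoters (0.119%). The genes were chosen as chaperones of this response, and the element is known from chaperone promoters. This contrast was therefore partly set by the choice of genes. Allowing any last base added Pdia4, giving 6 of 8 against 0.365% of all promoters. The shorter element ERSE-II, which is ATTGG, any 1 base and CCACG, was found in the Dnajb11 promoter alone among the 8 and in 0.0365% of all. The core of the XBP1 element UPRE, TGACGTGG, was in none of the 8 and in 0.676% of all promoters. Sdf2l1 held no match to any of these letters in this window. The matched sites are shown because 5 of the 8 searched promoters share the complete ERSE. The ERSE-II site of Dnajb11 is shown beside them. Capitals mark the paired blocks of each element, and each sequence is written along the strand of its gene, so that a site on the other strand begins with CGTGG. Distances run from the RefSeq start to the first capital of the element as written, which for sites before the start is its far end.
Hspa5 (chr2:34772020-34772048, plus strand, 65 bases before the start): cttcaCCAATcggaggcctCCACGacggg
Hsp90b1, site far from the start (chr10:86705633-86705661, minus strand, 212 bases before): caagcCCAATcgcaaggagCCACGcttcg
Hsp90b1, site near the start (chr10:86705528-86705556, minus strand, 107 bases before): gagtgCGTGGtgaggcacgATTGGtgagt
Pdia6 (chr12:17266486-17266514, plus strand, 98 bases before): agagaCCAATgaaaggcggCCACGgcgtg
Creld2 (chr15:88819515-88819543, plus strand, 126 bases before): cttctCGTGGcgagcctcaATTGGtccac
Calr (chr8:84847070-84847098, minus strand, 162 bases before): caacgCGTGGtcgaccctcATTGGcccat
Dnajb11, ERSE-II (chr16:22857847-22857867, plus strand, from base 8 after the start): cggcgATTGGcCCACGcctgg
The Hspa5 site lies before the RefSeq start but inside the gene span of GENCODE M21, which begins at position 34771970. A match is a description of these letters and was not tested for binding.

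All 10 genes were well above the detection limit, the fewest reads in any library being 130, for Sdf2l1. Per length of the principal transcript, Calr, a calcium-binding lectin chaperone, had the highest mean level at 222.6 RPKM (reads scaled to transcript length and library size). Hsp90b1 (GRP94, the Hsp90 of the ER lumen) followed at 107.5 RPKM, Hspa5 (BiP, the Hsp70 of the ER lumen) at 64.55 and the disulfide isomerase Pdia6 at 46.32. Manf, a BiP-binding protein that can be secreted and has trophic effects on dopamine neurons, had 25.12 RPKM. Near it lay Hyou1 (GRP170, a nucleotide exchange factor of BiP) at 23.68, Dnajb11 (ERdj3, a J-domain partner of BiP) at 22.87 and the disulfide isomerase Pdia4 (ERp72) at 19.38 RPKM. The lowest levels were those of Creld2, an ER stress-inducible protein with isomerase-like motifs, at 12.08 RPKM and of Sdf2l1, which binds ERdj proteins, at 11.35 RPKM. From Hsp90b1 downward the library ranges of neighbours in this order overlapped, for example 44.29 to 110.1 RPKM for Hspa5 and 32.79 to 65.23 for Pdia6, whereas Calr, at 161.6 to 288.9 RPKM, stayed above Hsp90b1, at 86.69 to 141.7. The ratio of the highest to the lowest library ran from 1.38 for Dnajb11 to 2.67 for Sdf2l1. Manf overlaps Rbm15b on the same strand, and Hsp90b1, Pdia6 and Dnajb11 overlap genes on the opposite strand. No strand setting of the authors' counting is named in the labels, and reads of these pairs may be shared.

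Across the 5 groups the 10 genes took nearly the same order. Stressed ECT mice on the control diet had the highest mean for 7 genes, and nonstressed mice had it for Sdf2l1, Creld2 and Manf. Stressed sham mice on the PLX diet came below both of these groups and above the remaining groups for all 10. Stressed sham mice on the control diet had the lowest mean for 8 genes, and stressed ECT mice on the PLX diet had it for Creld2 and Pdia4. No gene of the 10 passed an adjusted p of 0.05 in the 5-group F test of limma, where 2.4% of the 15225 tested genes did. The adjusted p ran from 0.1528 (Creld2) to 0.5352 (Calr). In the count test of DESeq2, Creld2, Pdia4 and Sdf2l1 passed (adjusted p 0.0284, 0.0136 and 0.0473), among 548 genes called in all. Without library 14, Dnajb11, Hyou1 and Sdf2l1 passed in limma (adjusted p 0.0297, 0.0468 and 0.0395), among 341 genes called in all. Several of the comparisons that follow share a group (the stressed sham mice on the control diet serve for stress and for ECT), and their values are not independent of each other. The 10 genes also vary together from library to library, so counts of them in 1 direction are not independent results. In fits with other tools, covariates or libraries left out, the number of all genes under an unadjusted p was not counted. Counts of the 10 in those fits therefore have no background beside them.

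**Figure D1:**
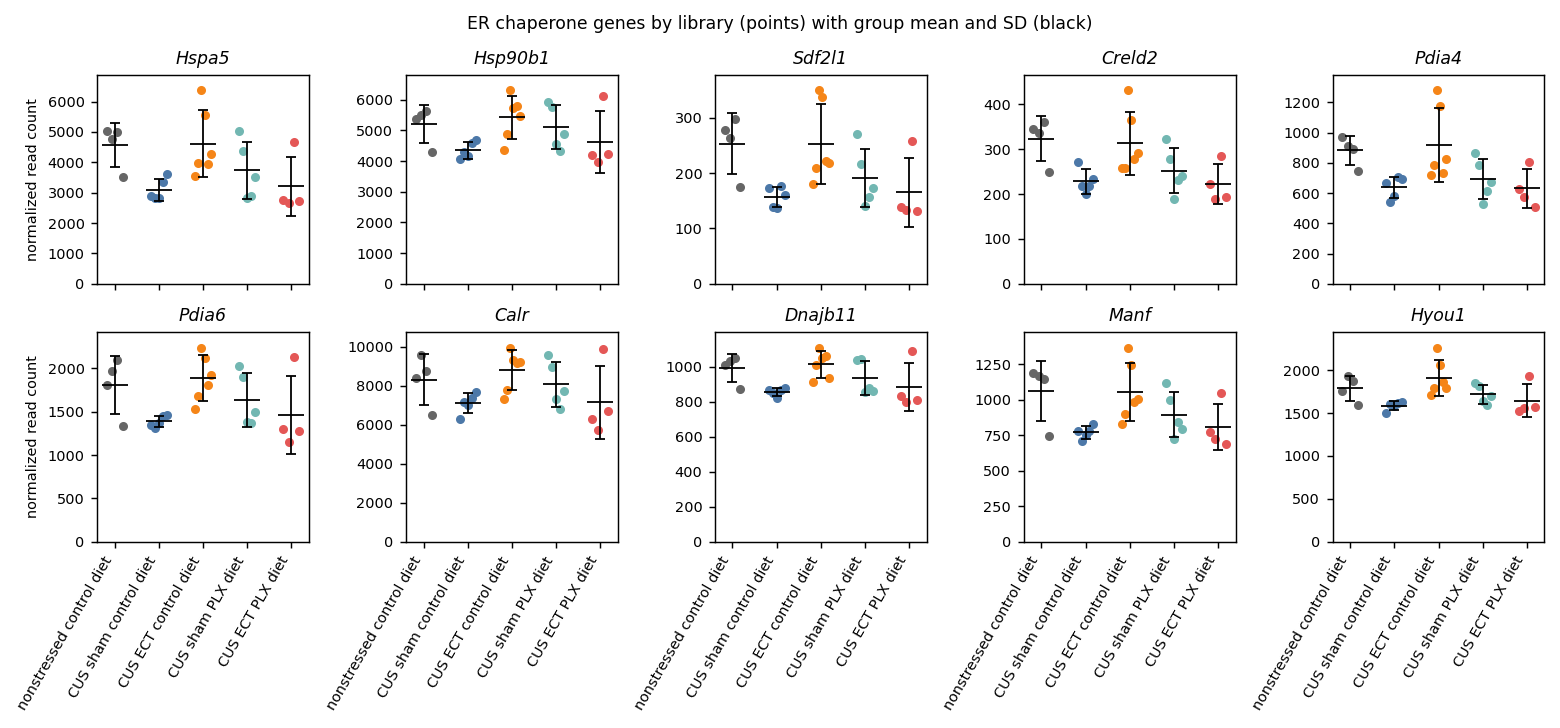
Normalised count (linear axis from 0) of each of the 10 ER chaperone genes in each library (points), by group, with the group mean and SD in black. In the stressed ECT group on the PLX diet 1 library sits apart above the other 3, and in the stressed ECT group on the control diet 2 libraries lie highest for most genes, for example Hspa5 at 6379 and 5543.

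Hspa5, which binds nascent chains and also keeps the stress sensors silent, measured 5023, 4772, 4984 and 3508 in the nonstressed libraries. It measured 2887, 2817, 2832, 3347 and 3616 in stressed sham mice on the control diet. In stressed ECT mice on the control diet its lowest, median and highest values were 3551, 4126 and 6379. Only the lowest nonstressed library, number 25, and the lowest ECT library reached down into the range of the sham libraries. On the PLX diet Hspa5 measured 5018, 4387, 2833, 2902 and 3509 in sham mice. In ECT mice on that diet it measured 2762, 2672, 4676 and 2715. These 2 groups overlapped, with high libraries (numbers 17 and 18 of sham, number 14 of ECT) and low libraries in each.

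Among the BiP partners, Hyou1 measured 1762, 1929, 1871 and 1599 in nonstressed mice, and 1497, 1604, 1580, 1614 and 1629 in stressed sham mice on the control diet. It ran from 1708 through a median of 1827 to 2261 in stressed ECT mice on the control diet, so that every ECT library lay above every sham library. On the PLX diet Hyou1 measured 1853, 1813, 1635, 1589 and 1700 in sham mice and 1518, 1558, 1934 and 1573 in ECT mice. The PLX diet groups overlapped, and library 14 was the highest of all 9. Sdf2l1 had the widest swing of the 10, at 277.3, 262.5, 298.4 and 174.5 in nonstressed mice against 172.5, 138.2, 136.8, 176.9 and 160.4 in stressed sham mice on the control diet. It ran from 179.4 through a median of 220 to 350 in stressed ECT mice on that diet, again above every sham library. Dnajb11 kept the narrowest range, with means of 993.3 ± 80.91 (SD, n = 4) in nonstressed mice, 856.9 ± 20.84 (n = 5) in stressed sham and 1014 ± 75.27 (n = 6) in stressed ECT mice on the control diet. Manf, at 1060 ± 211.7, 770.5 ± 44.02 and 1054 ± 207.5 in the same 3 groups, overlapped between them, since 1 nonstressed library had 743.5 and the lowest ECT library 828.4.

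Among the disulfide isomerases, Pdia4 measured 970.7, 914.1, 892.4 and 748.2 in nonstressed mice and 664.4, 543.5, 583, 706.6 and 690.3 in stressed sham mice on the control diet. It ran from 718.5 through a median of 804.7 to 1281 in stressed ECT mice on that diet. Both the nonstressed and the ECT libraries lay wholly above the sham libraries. On the PLX diet Pdia4 measured 863.9, 783.2, 528.3, 615.3 and 674.6 in sham mice and 626.2, 576.5, 806.9 and 510.3 in ECT mice, and these groups overlapped. Pdia6 also separated ECT (1536 to 2239) from sham (1316 to 1467) on the control diet. Creld2 did not quite do so, at 257.3 to 432.2 against 201 to 272.1. The folding chaperones Hsp90b1 (4372 to 6320 against 4059 to 4691) and Calr (7341 to 9958 against 6301 to 7706) overlapped between these groups as well.

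The first comparison asked what CUS with sham treatment did on the control diet relative to no stress and no treatment. All 10 chaperones had lower means in the stressed sham mice, with a median log2 fold change of -0.40 against -0.002 over all tested genes. The largest differences were those of Sdf2l1 (-0.67 ± 0.23, SE), Hspa5 (-0.55 ± 0.20), Creld2 (-0.49 ± 0.16) and Pdia4 (-0.47 ± 0.17), and the smallest was that of Hyou1 (-0.17 ± 0.08). None of the 10 passed limma's test adjusted over all genes, nor did any other gene (percent called 0), the adjusted p being 0.7589 for 9 of them and 0.8087 for Calr. At an unadjusted p under 0.05 there were 8 of the 10, and 989 of 15225 genes. DESeq2 and edgeR called none of the 10 either, with 9 under an unadjusted 0.05 in each. Only Pdia4 had groups that did not overlap, against 1.17% of tested genes that were lower without overlap. Leaving out library 23 left 5 of the 10 under an unadjusted 0.05, without a count over all genes. Markers of the choroid plexus, which lies beside the hippocampus, were lower in the same direction (median -1.65, all 14 lower, none called), with summed values of 1708 to 53760 in sham against 14917 to 86274 in nonstressed libraries. All 12 thalamus markers were lower as well (median -0.38, none called). With choroid plexus and thalamus marker means as covariates the median of the 10 was -0.37, with 7 under an unadjusted 0.05.

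The second comparison was ECT against sham in stressed mice on the control diet. All 10 chaperones had higher means after ECT, with a median log2 difference of 0.43 against -0.001 over all genes. Sdf2l1 (0.65 ± 0.21), Hspa5 (0.55 ± 0.18) and Pdia4 (0.50 ± 0.15) differed most, and Hyou1 (0.26 ± 0.07) and Dnajb11 (0.24 ± 0.08) least. None passed limma's adjusted test, in which 0.00657% of genes did. The adjusted p ran from 0.397 (Hyou1) to 0.6142 (Calr), and unadjusted all 10 were under 0.05, as were 1048 of 15225 genes. DESeq2 and edgeR also called none of the 10. Sdf2l1, Pdia4, Pdia6, Dnajb11 and Hyou1 were higher in every ECT library than in every sham library, which held for 0.355% of tested genes. Libraries 3 and 4, which share a title letter, were the highest ECT libraries for 8 of the 10 genes. Without both, a step chosen after their values were seen, all 10 stayed higher, the median was 0.26 and 2 of the 10 were under an unadjusted 0.05. Choroid plexus markers were higher too (median 0.44, all 14), as were 11 of 12 thalamus markers (0.15). All 14 microglial markers were lower (-0.22), with none called in these lists. With the choroid plexus and thalamus covariates all 10 chaperone differences were smaller, for example 0.51 for Hspa5, 0.45 for Pdia4 and 0.61 for Sdf2l1. All 10 had an unadjusted p under 0.05 in that limma fit, and none was called.

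The third comparison was ECT against sham on the PLX diet. Here all 10 means were lower after ECT, from -0.23 for Sdf2l1 to -0.07 for Hyou1, with a median of -0.17, and no gene of the table was called (percent called 0). None of the 10 had an unadjusted p under 0.05 (388 genes of 15225 did), and DESeq2 and edgeR called none. The size rested on single libraries. Without library 14 the median was -0.30, whereas it was -0.09 without library 17 and -0.10 without library 13. In the limma fit without library 14, 6 of the 10 had an unadjusted p under 0.05 and none was called. How many of all genes did so in that fit was not counted. In the same comparison all 14 choroid plexus markers were lower (median -1.49), as were all 10 meningeal fibroblast markers (-0.35) and all 10 neocortex markers (-0.24), none called. All 10 oligodendrocyte markers were higher (0.15, none called). The covariate fit of limma held choroid plexus and thalamus markers only, and in it none of the 10 had an unadjusted p under 0.05. The part of the other marker lists was not tested.

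The fourth comparison set the PLX diet against the control diet within ECT mice, and again all 10 were lower on the PLX diet, with a median of -0.39. Pdia4 (-0.53 ± 0.16, adjusted p 0.1207 in limma) and Creld2 (-0.49 ± 0.16, 0.1331) came nearest to the threshold. Hyou1 (-0.22 ± 0.07, 0.1688), Sdf2l1 (-0.63 ± 0.22, 0.1863) and Hspa5 (-0.53 ± 0.19, 0.2018) followed, and Hsp90b1 was farthest (-0.24 ± 0.12, 0.451). None passed in limma, where 2.3% of genes did, and 9 had an unadjusted p under 0.05, as had 1741 of 15225 genes. DESeq2 called 1, Pdia4 (adjusted p 0.0358), among 404 genes called in all, and edgeR none. Without library 14, limma called 7 of the 10, namely Calr, Dnajb11, Hspa5, Hyou1, Pdia4, Pdia6 and Sdf2l1, with adjusted p between 0.0162 and 0.0484, among 334 genes called in all in that fit. Without libraries 3 and 4 of the control diet, none was called, the median was -0.27 and 1 had an unadjusted p under 0.05. In ECT mice the 14 microglial markers were lower on the PLX diet. So were all 12 thalamus markers (median -0.31) and all 10 endothelial and mural cell markers (-0.20), with none called in these 2 lists. All 11 granule cell markers (0.36, 2 called) and all 10 meningeal fibroblast markers (0.50, none called) were higher. Their part in the result was not tested beyond the covariate fit of limma, which held choroid plexus and thalamus markers. In that fit all 10 chaperone differences were nearer to 0, for example -0.46 for Hspa5 and -0.56 for Sdf2l1. None was called, and 9 had an unadjusted p under 0.05. In sham mice the diet difference had the opposite sign, 10 of 10 higher on the PLX diet with a median of 0.19, none called (1.86% of genes were) and none under an unadjusted 0.05. Without library 17 this median was 0.11, and with the choroid plexus and thalamus covariates it was 0.28. In that covariate fit of limma Hsp90b1 and Hyou1 had an unadjusted p under 0.05, and none of the 10 was called. All 14 choroid plexus markers (median 1.52) and all 10 meningeal fibroblast markers (0.62) were also higher on the PLX diet in sham mice, and all 10 oligodendrocyte markers were lower (-0.20), none called.

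Whether ECT acted differently on the 2 diets was tested by the interaction. The ECT difference on the PLX diet minus that on the control diet was negative for all 10, from -0.33 (Hyou1 and Dnajb11) to -0.88 (Sdf2l1) on the log2 scale, with a median of -0.60 against 0.001 over all genes. Hspa5 had -0.77 ± 0.27. Each of the 10 had an unadjusted p under 0.05, as had 1043 of 15225 genes. None passed limma's adjusted test, with adjusted p from 0.6443 to 0.666, and neither did any other gene (percent called 0). DESeq2 and edgeR called none of the 10. The median ran from -0.42 without libraries 3 and 4 to -0.73 without library 14. Choroid plexus markers had a median interaction of -1.74, all 14 negative and none called. With the marker covariates the Hspa5 interaction was -0.79 and the Hyou1 interaction -0.37. In that fit the interaction weakened for Creld2 (-0.62 to -0.53), Pdia4 (-0.63 to -0.57) and Sdf2l1 (-0.88 to -0.86). It strengthened for Calr, Dnajb11, Hsp90b1, Hspa5, Hyou1 and Pdia6, and stayed at -0.58 for Manf.

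**Figure D2:**
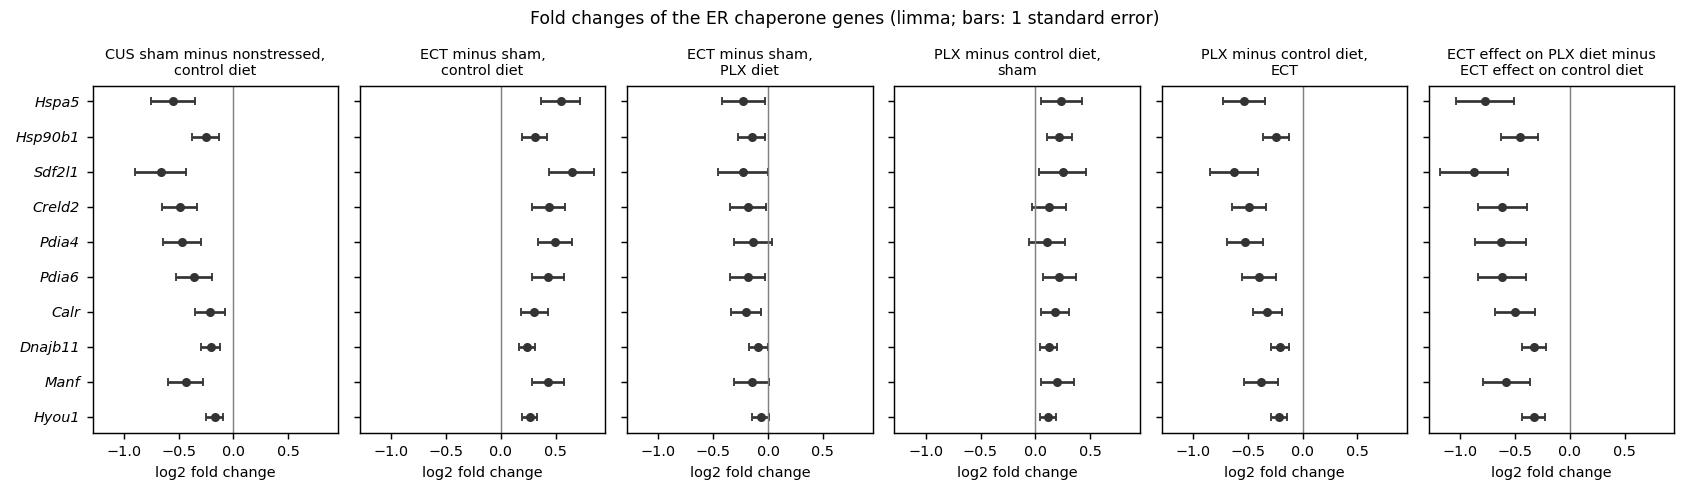
Log2 fold change (points) with 1 standard error (bars) of each chaperone in limma, by comparison, on the log2(value + 1) scale, with a line at 0. The points lie left of 0 for stress, right for ECT on the control diet and left for the interaction, where Sdf2l1 (-0.88) lies farthest.

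Averaged over both treatments, the PLX diet difference had a median of -0.09, and averaged over both diets the ECT difference had a median of 0.13. Neither gave a call or an unadjusted p under 0.05 among the 10 (3.05% and 0% of genes were called). Against nonstressed mice, stressed ECT mice on the control diet had 6 genes higher and 4 lower, with a median of 0.03 (0% of genes called). Stressed sham mice on the PLX diet had a median of -0.19 and stressed ECT mice on the PLX diet one of -0.36. None of the 10 was called (1.85% and 1.89% of genes were). Under an unadjusted 0.05 there were 2 and 5 of the 10, and 1855 and 1591 of 15225 genes. Without library 25 the sham median was -0.34. Without library 14 the ECT median was -0.52, with all 10 under an unadjusted 0.05 and no count over all genes. DESeq2 and edgeR gave no calls among the 10 in these 5 comparisons.

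The chaperones varied together from library to library within the groups. After each group's mean was removed, the correlation between pairs of the 10 genes over the 24 libraries ran from 0.687 to 0.969, with a median of 0.891 over 45 pairs. Without the libraries farthest out, numbers 3 and 14, the range was 0.608 to 0.957 and the median 0.854. A single principal component held 91.0% of the variance of the 10 genes. In 9 libraries every chaperone was above its mean over all libraries (numbers 3, 4, 6, 14, 17, 18, 22, 23 and 24). In 11 libraries none was (numbers 1, 8, 9, 10, 11, 12, 13, 15, 19, 20 and 21). The mean deviation of the 10 ran from 0.55 in library 3 to -0.38 in library 13 on the log2 scale. Library 14 stood at 0.26 while library 15, of the same group and title letter, stood at -0.35. Libraries 22 and 25, nonstressed and of the same letter, stood at 0.26 and -0.15. The points share library depth and tissue makeup, and these correlations are given without a test.

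**Figure D3:**
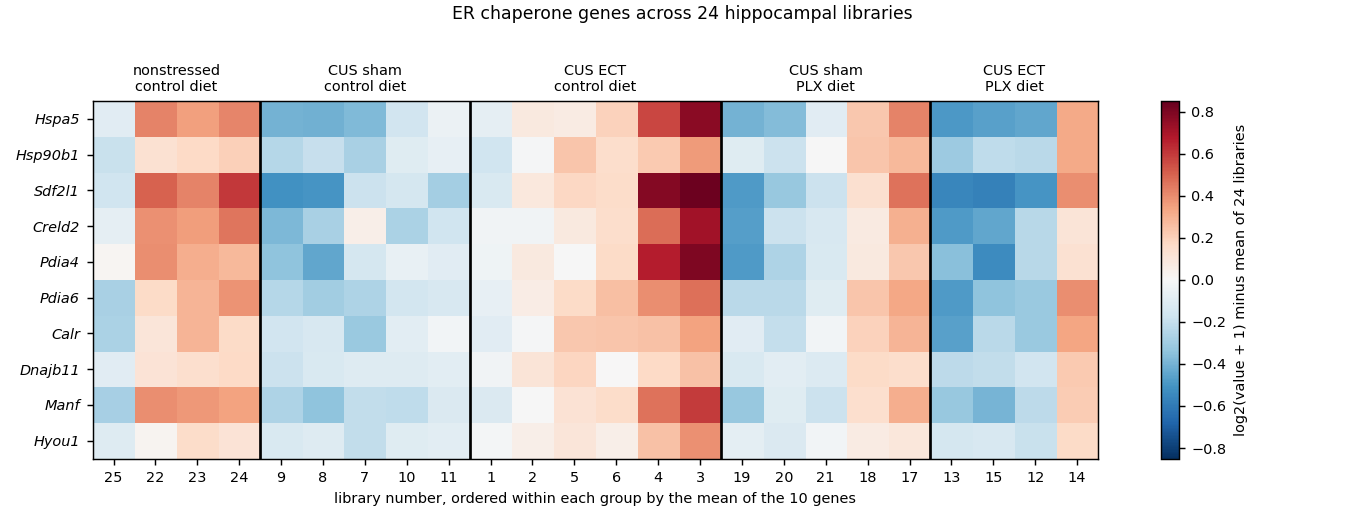
Log2(value + 1) of each chaperone (rows) in each of the 24 libraries (columns, by group) as the difference from the gene's mean over all libraries (colour scale). Whole columns take 1 colour, as in library 3 (mean 0.55) and library 13 (mean -0.38), and groups other than stressed sham on the control diet hold columns of both colours.

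Libraries of the same title letter could be alike, as numbers 3 and 4 were, or far apart, as numbers 14 and 15 were. The within-letter correlation of the fit ran from 0.237 for Dnajb11 to 0.587 for Hyou1, against a median of 0.201 over all tested genes. With the letter as a random effect, or with each letter's libraries averaged to 14 values, none of the 10 was called in the comparisons above. Depth had a correlation of -0.18 with the mean of the 10.

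Ranking 11222 genes by their correlation with the mean of the chaperones within groups put 8 of the 10 in the top 10 and the last, Calr, at rank 15. The nearest genes outside the set were Pdia3 (r = 0.923, a disulfide isomerase that works with calreticulin), Stip1 (0.919, which joins cytosolic Hsp70 and Hsp90), Xbp1 (0.900), the small heat shock protein gene Hspb1 (0.891) and Cdk2ap2 (0.880). Canx, the membrane-bound partner of calreticulin, reached 0.865. In all, 24 genes had r above 0.8 (0.214% of those ranked). For Hspa5 alone the nearest were Sdf2l1 (0.959), Pdia6 (0.937), Manf (0.933), Pdia4 (0.930), Hsp90b1 (0.920), Hyou1 (0.915) and Xbp1 (0.905), then Pdia3 (0.901), Hspb1 (0.898) and Stip1 (0.898). Xbp1 measured 1449 ± 257 (n = 4) in nonstressed mice, 1196 ± 73.09 (n = 5) in stressed sham and 1539 ± 258.7 (n = 6) in stressed ECT mice on the control diet. On the PLX diet it measured 1291 ± 180.5 (n = 5) in sham and 1132 ± 170.4 (n = 4) in ECT mice. Its log2 difference between the diets in ECT mice was -0.44 ± 0.13 (adjusted p 0.077 in limma), and its interaction was -0.54 ± 0.18 (0.64).

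**Figure D4:**
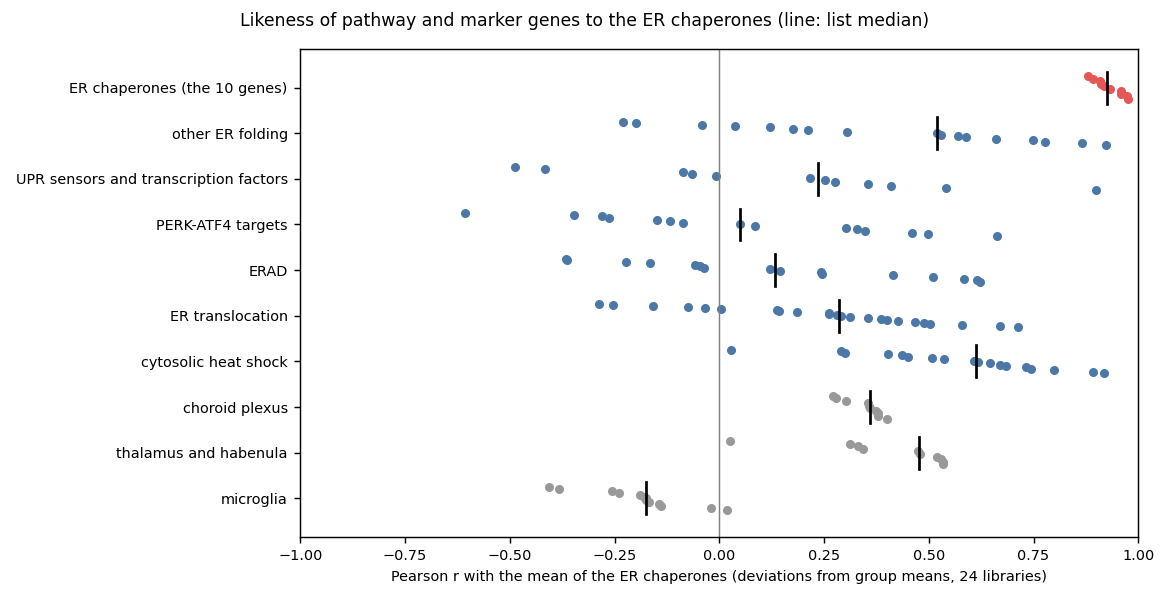
Pearson r of each gene with the mean of the 10 chaperones over 24 libraries, as deviations from group means (axis from -1 to 1), for pathway and marker lists, with a line at each list's median. After the chaperones the highest medians are those of cytosolic heat shock genes (0.61) and other ER folding genes (0.52), and PERK-ATF4 targets centre near 0 (0.05). Meningeal fibroblast markers, which are not plotted, had a median of 0.56.

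Lists of other genes that handle ER proteins were set beside the chaperones in the interaction. Of 20 other ER folding genes, 17 had a negative interaction, 5 with an unadjusted p under 0.05 and none called, and the median was -0.12. Pdia3 (-0.33 ± 0.13), the J-domain cochaperone Dnajc3 (-0.32 ± 0.14), the glucosyltransferase Uggt1 (-0.22 ± 0.08), which returns unfolded glycoproteins to calnexin, and Canx (-0.21 ± 0.08) had the smallest p-values, while P4hb, another disulfide isomerase, had -0.04 ± 0.09. Among 12 sensors and transcription factors the median interaction was -0.05, with none called. Besides Xbp1, the protease Mbtps1, which cuts ATF6, had 0.18 ± 0.05 in the opposite direction. Creb3 had -0.13 ± 0.07. Atf4 measured 2475 ± 212.2 in nonstressed, 2462 ± 145.6 in stressed sham and 2653 ± 233.1 in stressed ECT mice on the control diet, with an interaction of -0.16 ± 0.09. Atf6 had an interaction of 0.06 ± 0.10 and a correlation of -0.488 with the chaperones.

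The 16 tested PERK-ATF4 targets split evenly in the interaction, with 8 of either sign, a median of 0.00 and none under an unadjusted 0.05. Ddit3, which encodes the transcription factor CHOP, had -0.15 ± 0.15, the mitochondrial folate enzymes Mthfd2 and Shmt2 had -0.33 ± 0.17 and -0.11 ± 0.09, and Cebpb had 0.55 ± 0.27. Of 17 genes of ER-associated degradation, 12 had a negative interaction, 3 with an unadjusted p under 0.05, with a median of -0.08. Herpud1, a stress-inducible member of that pathway, had -0.26 ± 0.11, the channel component Derl2 had -0.23 ± 0.10 and the ligase gene Syvn1 -0.11 ± 0.06. The enzyme Ube2j1 had -0.08 ± 0.05. Of 24 genes of ER translocation, 18 were negative with a median of -0.05, among them the signal recognition genes Srp54a (-0.29 ± 0.10) and Srpr (-0.12 ± 0.05), the translocon gene Sec61a1 (-0.06 ± 0.06) and Ostc (-0.15 ± 0.09). Dnajb9, an XBP1-induced cochaperone of BiP, had -0.11 ± 0.06 and was higher in the PLX than in the control diet sham mice by 0.15 ± 0.04 (adjusted p 0.071). None of these genes was called in any comparison named here.

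The cytosolic and mitochondrial heat shock genes, many of them targets of the heat shock factor HSF1, had the highest median correlation with the chaperones among these lists (0.61). All 18 were lower in stressed sham than in nonstressed mice (6 with an unadjusted p under 0.05), all 18 were higher after ECT on the control diet (17 under 0.05), and all 18 had a negative interaction (10 under 0.05, median -0.23). Hsph1, an Hsp110 exchange factor, measured 4500 ± 183.7 in stressed sham and 5570 ± 357.8 in stressed ECT mice on the control diet, a log2 difference of 0.31 ± 0.07 (adjusted p 0.30). On the PLX diet it measured 4856 ± 342.8 in sham and 4738 ± 812 in ECT mice. The interaction was -0.35 ± 0.10 for Hsph1, -0.21 ± 0.05 for the mitochondrial chaperonin Hspd1, -0.35 ± 0.12 for Chordc1 and -0.44 ± 0.26 for the inducible Hsp70 gene Hspa1b. The single call among the pathway lists was Hspa4, higher on the PLX than on the control diet in sham mice (0.16 ± 0.04, adjusted p 0.045 in limma, 1 of 18 against 1.86% of all genes).

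Markers of neighbouring tissue differed widely between libraries. Transthyretin (Ttr), the main choroid plexus transcript, ranged from 904.3 in library 6, where all 10 chaperones were above their mean, to 78579 in library 22, where they also were. Within groups the mean of the choroid plexus markers had a correlation of 0.34 with the mean of the chaperones, and the thalamus markers 0.47. The astrocyte markers had 0.41, the oligodendrocyte markers 0.40, the endothelial and mural cell markers 0.28 and the meningeal fibroblast markers 0.65. The pyramidal cell markers had -0.55, the microglial markers -0.24, the neocortex markers 0.24, the striatum markers 0.12 and the granule cell markers -0.06. No marker in these lists was at 0 in all 24 libraries. Where all 10 chaperones were above their mean, libraries 3, 4, 17, 18, 22, 23 and 24 had Ttr from 16222 to 78579. Libraries 6 and 14, also with all 10 above, had 904.3 and 1667. Where none was above its mean, libraries 1, 8, 9, 10, 13, 15 and 19 had Ttr from 960.7 to 2202. Libraries 11, 12, 20 and 21, also with none above, had 35833 to 63213. Tcf7l2, a thalamus marker gene, was highest in library 3 (1259), where all 10 chaperones were above their mean. It was next highest in library 11 (1123), where none was. The part of tissue makeup in the group differences was otherwise not tested beyond the covariate fit, and in whole tissue fewer cells of a type and less RNA per cell cannot be told apart.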

How the data were processed

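RNA was extracted from the hippocampus and sequenced after poly(A) selection, per the labels' protocols. The submitters' processing notes name cutadapt, HTSeq 0.6.1p1, TopHat2 2.0.10 and DESeq2 1.6.3, with mm10 and hg19 as builds of no stated role. For annotation and strand setting nothing is given in the sources used here. The deposited table holds normalised counts per gene, a signal in which, from the values, reads are divided by a size factor per library. Multiplying back gave whole reads for 100% of values in all 24 libraries (tolerance 0.001 reads).

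The 15225 genes (of 23240) that reached 10 in 4 or more libraries were tested on log2(value + 1) with limma 3.58.1, trend and robust options, in 1 fit of 5 group means over all 24 libraries, with Benjamini-Hochberg adjustment over all tested genes. A gene is called at an adjusted p under 0.05. The planned count test, edgeR's quasi-likelihood test (edgeR 4.0.16), was an alternative on recovered reads, as was DESeq2 1.42.0, because the table holds no raw counts. Fold changes keep that log2 scale, which understates those of low genes. RPKM used recovered reads and the GENCODE M21 principal transcript; coordinates are GRCm38. The fits were tested on simulated data.

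The 10 genes, the pathway lists and the marker lists were chosen with earlier results of these data known, and the motif search after values had been seen. Beside the 10 genes, the text names up to 4 genes per list with the smallest p in the interaction or in the diet difference within ECT mice, 10 fixed genes of the pathway, the genes of highest likeness and 3 marker genes. Replicates were grouped by the labels alone. Alternatives were other scalings, pseudocounts (0.5 and 8), filters, tools, title letter, tissue covariates and leaving out libraries.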

Additional observations from a re-analysis of the deposited data

Results flagged for a closer look

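Of 50 sets of values (10 chaperones in 5 groups), 8 held a library far from the others of its group by Dixon's criterion at the 95% level, where chance gives about 1 in 20. In stressed ECT mice on the PLX diet, library 14 was far above the other 3 for Hspa5 (4676), Hsp90b1 (6138), Sdf2l1 (258.4), Pdia6 (2128), Dnajb11 (1093) and Hyou1 (1934). In nonstressed mice, library 25 was far below the other 3 for Hspa5 (3508) and Manf (743.5). Because the chaperones vary together, these flags are not independent of each other. Libraries 14 and 25 held 16686516 and 17689089 reads, within the range of the other libraries.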

How the results depend on the processing

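The number of the 10 chaperones called stayed at 0 in the planned comparisons under the alternatives run, with these exceptions. DESeq2 called 1 in ECT mice between diets and 3 in the 5-group test. Leaving out single libraries gave between 0 and 7 calls between diets in ECT mice and between 0 and 3 in the 5-group test, the highest counts without library 14. Values that were not called changed sign for some genes: the median of stressed ECT mice on the control diet against nonstressed mice ran from -0.10 to 0.08, and under some alternatives 7 of 10 kept their direction for diet averaged over treatments, 9 for ECT averaged over diets and 8 for stressed sham mice on the PLX diet against nonstressed mice. The direction of all 10 held under every alternative for stress (median -0.52 to -0.33), ECT on the control diet (0.26 to 0.49), ECT on the PLX diet (-0.30 to -0.09), diet in sham (0.11 to 0.28) and ECT mice (-0.55 to -0.27), and the interaction (-0.73 to -0.42); the cause of these shifts was not tested. Because the 10 genes vary together, their shared direction is not 10 independent results. In the main fits between 49% and 50.8% of all tested genes were lower in these comparisons. Averaging libraries by title letter and leaving out libraries 3 and 4 together were chosen after seeing the data. No paired analysis was possible because the groups compared share no replicate numbers. A fit of only the compared groups gives no value for the 5-group test. The fewest reads behind a value of the 10 genes were 130, and groups held 4 to 6 libraries.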

Other observations

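Genes of the opposite pattern included those of the cold-inducible RNA-binding proteins. Rbm3 had a correlation of -0.804 with the mean of the chaperones within groups and Cirbp one of -0.728. Cirbp measured 664.7 ± 36.56 (n = 4) in nonstressed mice, 860.3 ± 59.01 (n = 5) in stressed sham and 673.5 ± 105.7 (n = 6) in stressed ECT mice on the control diet. On the PLX diet it measured 793.3 ± 114.7 (n = 5) in sham and 902.1 ± 129.7 (n = 4) in ECT mice. Rbm3 was lowest in libraries 17 (1567), 4 (1587) and 14 (1595), in each of which all 10 chaperones were above their mean, and highest in library 12 (2598), in which none was. Both genes were chosen after their values were seen. In all, 23 genes had r below -0.8, the lowest being Zdhhc8 (-0.875), Ercc3 (-0.872) and Wdr77 (-0.868).

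Outside the 10 chaperones, 32 genes held a complete ERSE in the same promoter window, a search made after values had been seen. Of these, 13 were tested and 9 were abundant enough to be ranked for likeness, with a median r of 0.301 against -0.056 over all ranked genes. Canx (0.865), Dnajc3 (0.777) and the degradation ligase gene Syvn1 (0.623) had the highest values, and Adcy3, an adenylyl cyclase gene, had -0.387. In the interaction, 10 of the 13 were negative with a median of -0.13, 2 had an unadjusted p under 0.05 and none was called.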
